A study of Homo sapiens with 8 samples.

Results

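A set of 9 human genes whose products remove or read histone acetylation was followed by the H3K27 acetylation (H3K27ac) at and around them: the class I histone deacetylases HDAC1, HDAC2 and HDAC3, the class IIa deacetylases HDAC4, HDAC5, HDAC7 and HDAC9, and the BET reader genes BRD2 and BRD3. They are 9 of 20033 protein-coding genes and were chosen by name. All peaks within each gene body (GENCODE release 44, hg38) and 20 kb either side were taken, which gave 149 merged intervals of 143733 in all. An interval is a stretch in which peaks of any of the 6 libraries overlap or touch.

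Acetylation of H3K27 marks active promoters and enhancers and is placed mainly by the paralogous acetyltransferases CREBBP and EP300. Class I deacetylases remove acetyl groups as the catalytic subunits of the NuRD, SIN3, CoREST, MiDAC and NCoR co-repressor complexes. Class IIa deacetylases have weak catalytic activity of their own, shuttle between nucleus and cytoplasm, and act by binding MEF2 transcription factors and recruiting the HDAC3 complexes. BET proteins bind acetylated histones through tandem bromodomains and recruit transcription machinery.

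The cells were HCEC-1CT, a human colonic epithelial line immortalized with CDK4 and telomerase, that carries a doxycycline-inducible Cas9. Both groups share this background. The WT group comprised 3 H3K27ac chromatin immunoprecipitation sequencing (ChIP-seq) libraries of parental cells and the CREBBP-KO group 3 libraries of cells in which CREBBP was inactivated by Cas9 and guide RNAs. The study's methods describe the knockout cells of this assay as monoclonal, and elsewhere describe pools of several clones, so clonal and genotype differences cannot be told apart. According to the design text the 3 libraries of each group came from independent cell populations, and the p-values measure the spread between these.

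The fold is the enrichment of a peak over its local background, and its percentile is the rank of that fold within the library's own list (100.0 is the highest). The shift is the difference, CREBBP-KO minus WT, of the rank scores of an interval, in units of the spread over all tested intervals. A change common to all peaks cannot show in ranks, and words such as rose and fell refer to rank. By mass spectrometry the study reported a moderate H3K27ac reduction in the knockout, of borderline significance. By quantitative immunofluorescence it reported a significant decrease, of minimal size beside the change under a deacetylase inhibitor. With a test on reads at stricter thresholds it found nearly all peaks unaffected, so its share is not comparable with the counts here. The shift used here was fitted with limma over 34864 intervals, with Benjamini-Hochberg adjustment over all of these. Each had a fold of at least 5 in all 3 libraries of a group and a peak in all 6. Promoter percentiles were compared by a two-sided exact permutation test, which cannot go below p = 0.1 with 3 libraries against 3.

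The libraries held 93567, 92891 and 86163 peaks in WT and 111697, 105017 and 99008 in CREBBP-KO, so the knockout lists were longer without overlap. Of the marker genes of the labelled cell type, 0 of 6 epithelial and 0 of 5 intestinal genes had a promoter peak in all 6 libraries, and KRT18 alone had one in 5. Promoter peaks were present in all 6 libraries at 3 of 3 mesenchymal genes (VIM, COL1A1, COL3A1), whose mean percentiles ran from 96.6 to 98.8 over the WT libraries and from 97.9 to 99.9 over the knockout libraries, and at 0 of 2 endothelial and 0 of 2 immune genes. The COL1A1 peaks overlapped the window at its start, but had summits at −8563 to −8418 bp from it and widths of 26749 to 37766 bp. The COL1A1 interval ranked higher in CREBBP-KO, from a fold of 21.2 ± 1.27 (SD, n = 3) to 35.6 ± 2.17 (shift 0.87 ± 0.18, limma adjusted p = 0.00084), and VIM and COL3A1 were not called. The part of this in the members' values was not tested. The promoter of CREBBP itself was acetylated in both groups, with a fold of 18.0, 21.0 and 16.1 in WT and 24.1, 25.9 and 28.9 in CREBBP-KO, which does not check the knockout (shift 0.46 ± 0.18, limma adjusted p = 0.047). The EP300 promoter had a fold of 24.3, 24.8 and 24.7 in WT and 29.4, 29.0 and 29.3 in CREBBP-KO, and its shift was not called (0.05 ± 0.17, limma adjusted p = 0.849).

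Across the 9 regions, 71 of 149 intervals had a peak in all 6 libraries and 50 passed the filter and were tested. Of these 50, 8 ranked higher in CREBBP-KO, 12 ranked lower and 30 were not called at an adjusted p of 0.05. Over all tested intervals 18.6% were called higher and 18.7% lower. The members' median shift was 0.01 and their median absolute shift 0.44, against 0.02 and 0.43 over all tested intervals. At an adjusted p of 0.0001, 2 of the 50 remained, against 2.79% of all tested intervals. An interval that reached the fold minimum in 1 group alone had to lean toward that group. Of the 50, 7 passed in CREBBP-KO alone, of which 4 were called higher, and 2 passed in WT alone, both called lower. Of the 41 that passed in both groups 4 were called higher and 10 lower, against 15.5% and 15.8% of all tested intervals that did so.

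By position, of 12 tested intervals at a start of the member itself, 3 were higher and 2 lower, and of 8 at the start of a neighbouring gene 3 were higher and 0 lower. Of 30 away from starts, 2 were higher and 10 lower. No test of a difference by position was made, and at the own starts of the class IIa genes 0 of 6 were higher and 2 lower. Over the whole genome, of tested intervals at a canonical protein-coding start 27.2% were called higher and 7.5% lower, and of those at none 15.1% and 23.2%. The median shift was 0.22 at canonical starts and −0.09 elsewhere.

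**Figure D1:**
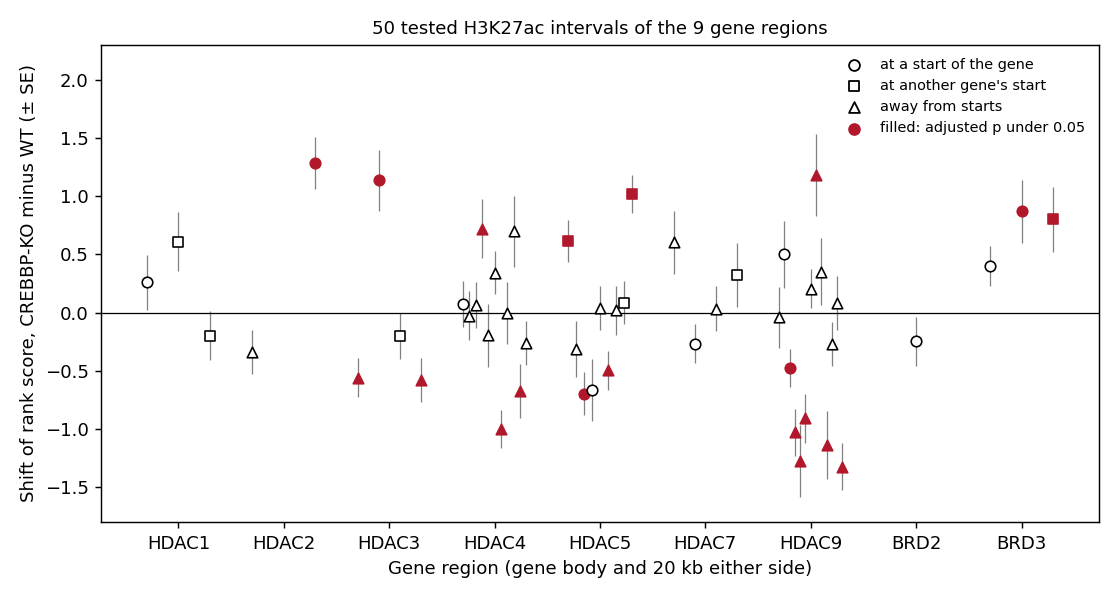
Shift of the rank score (CREBBP-KO minus WT, y axis, with its SE) for the 50 tested intervals of the 9 gene regions (x axis), in order of position along each gene. Circles lie at a start of the gene, squares at another gene's start and triangles away from starts, and filled symbols passed an adjusted p of 0.05. HDAC9 held 6 of the 12 lower intervals.

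The number of peaks in the regions was 112, 99 and 101 in WT and 130, 115 and 108 in CREBBP-KO. The groups overlapped (means of 104 ± 7.0 and 118 ± 11.2, SD, n = 3; exact permutation test, p = 0.2). The difference of means was 13.7 peaks with the lists as deposited, 2.67 with lists cut to equal length and 4.33 when peaks had a −log10 q of at least 5.

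At the 9 canonical starts, all 9 promoters had a peak in all 6 libraries. Percentiles were higher in CREBBP-KO without overlap at 3 promoters (HDAC2, HDAC3, HDAC9) and lower without overlap at 1 (HDAC5). Over the 11837 canonical promoters with a peak in all 6 libraries these shares were 46% and 7.25%, and the median percentile difference was 3.51. By limma, 2 of the 9 promoter intervals ranked higher (HDAC2, HDAC3), 1 lower (HDAC5) and 6 were not called.

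The promoters of HDAC2 and HDAC3, the 2 that ranked higher, are shown with that of HDAC9. It had the fewest CpG dinucleotides of the 8 member promoters with RefSeq sequence. Each sequence is the 250 bases before the start in RefSeq (GRCh38.p14), on the strand of the gene. Capitals mark matches, on either strand, to GGGCGG, the letters of a GC box, to those of the CCAAT box, or to TGANTCA, the letters of an AP-1 site. The cyclic AMP response element (TGACGTCA), its core TGACG, an ETS site (CCGGAAG) and a TEAD site (GGAATG) were searched too, and the core lies within the full element.
HDAC2 promoter, chr6:113971149-113971398, minus strand: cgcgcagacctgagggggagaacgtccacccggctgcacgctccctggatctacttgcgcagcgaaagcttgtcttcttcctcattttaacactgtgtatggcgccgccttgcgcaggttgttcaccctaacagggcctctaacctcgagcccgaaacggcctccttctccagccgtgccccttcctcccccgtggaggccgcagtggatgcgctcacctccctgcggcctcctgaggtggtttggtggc
HDAC3 promoter, chr5:141636850-141637099, minus strand: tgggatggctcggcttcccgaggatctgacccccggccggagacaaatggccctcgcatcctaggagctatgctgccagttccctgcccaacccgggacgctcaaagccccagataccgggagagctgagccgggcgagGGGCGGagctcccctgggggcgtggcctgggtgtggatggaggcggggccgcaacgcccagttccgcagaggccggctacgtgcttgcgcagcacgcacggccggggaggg
HDAC9 promoter, chr7:18495499-18495748, plus strand: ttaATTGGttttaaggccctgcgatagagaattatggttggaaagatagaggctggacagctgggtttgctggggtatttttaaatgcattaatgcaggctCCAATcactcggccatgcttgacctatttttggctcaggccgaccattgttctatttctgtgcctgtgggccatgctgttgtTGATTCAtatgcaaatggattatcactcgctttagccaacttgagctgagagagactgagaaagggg

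Of the 9 members, 8 had an entry in the RefSeq promoter table, and HDAC5, whose promoter ranked lower, had none. The HDAC2 promoter matched none of these motifs and the HDAC3 promoter 1 GC box. The HDAC9 promoter matched 2 CCAAT boxes and 1 AP-1 site. Among 35116 RefSeq promoters of this length, 42.6% held a GC box, 32% a CCAAT box and 6.57% an AP-1 site. The HDAC9 promoter had 45.2% GC and 4 CpG, against 63.2% and 18 in HDAC2 and 70.8% and 22 in HDAC3. The BRD3 promoter had 86.8% GC and 6 GC boxes, and the median of all promoters was 58% GC.

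Of the class I genes, HDAC2, a subunit shared by most co-repressor complexes, had the largest shift of the 9 promoters with all libraries. Without CREBBP-KO replicate 3 its shift was 0.99 against 1.08 at HDAC3, and ranked by −log10 p 0.41 against 0.71. Its promoter interval (chr6:113967959-113972280) had a fold of 11.3, 12.0 and 15.2 in WT and 19.3, 28.7 and 35.3 in CREBBP-KO. All 3 knockout libraries stood above all WT libraries, and the spread within the knockout was wider. The mean fold was 12.8 ± 2.06 (SD, n = 3) and 27.8 ± 8.05 (SD, n = 3), and the percentile 90.1 ± 3.25 and 98.7 ± 1.49 (exact permutation test, p = 0.1). The shift was 1.28 ± 0.23 (SE; limma adjusted p = 0.000204). Ranked by −log10 p it was not called (limma adjusted p = 0.0615).

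HDAC2 had 1 other tested interval of its 14 (chr6:113994874-114001270), 25.5 kb upstream of the canonical start and inside the annotated gene. Its fold was 18.8, 24.5 and 20.4 in WT and 17.3, 23.7 and 22.1 in CREBBP-KO. By mean percentile over all 6 libraries it was the highest interval away from starts of any member, while in WT an interval of HDAC4 stood higher (98.3 against 98.2). The groups overlapped (shift −0.34 ± 0.19, limma adjusted p = 0.166). In WT it ranked above the promoter, with a mean percentile of 98.2 against 90.1, and in CREBBP-KO the means were 97.2 and 98.7.

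HDAC3, the catalytic subunit of the NCoR complex, lies 101 bp from the start of RELL2, a membrane protein gene on the opposite strand, and a single interval covered both starts (chr5:141635152-141637957). Its fold was 5.42, 4.68 and 5.50 in WT and 8.08, 9.64 and 9.12 in CREBBP-KO. The groups did not overlap, and the percentile rose from 59.5 ± 4.24 (SD, n = 3), the lowest WT mean of the 9 promoters, to 81.4 ± 1.46. The shift was 1.14 ± 0.26 (SE; limma adjusted p = 0.0021; exact permutation test of the percentiles, p = 0.1). The interval reached the fold minimum of 5 in CREBBP-KO alone. With a minimum of 3, which both groups met, the shift was 0.77 (limma adjusted p = 0.00598). The signal could not be divided between the 2 genes.

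Around HDAC3, 2 intervals ranked lower while the promoter ranked higher, of 4 tested in the region (18.7% and 18.6% over all tested intervals). The interval 17.3 kb upstream (chr5:141653451-141655960) had a fold of 13.9, 13.9 and 14.2 in WT and 11.0, 11.4 and 11.7 in CREBBP-KO. The libraries of each group were nearly equal and the groups did not overlap (shift −0.56 ± 0.17, limma adjusted p = 0.0111). Ranked by −log10 p its shift was −0.22, not called (limma adjusted p = 0.229). The interval 32.0 kb downstream of the start (chr5:141601955-141606923) had a fold of 11.3, 11.3 and 13.1 in WT and 9.37, 9.86 and 8.70 in CREBBP-KO, again without overlap (shift −0.58 ± 0.19, limma adjusted p = 0.0195). It was not called without WT replicate 3 (limma adjusted p = 0.0707), without CREBBP-KO replicate 3 (0.0769) or when ranked by −log10 p (0.0631).

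HDAC1, the close paralogue of HDAC2, overlapped between groups at its promoter (chr1:32291061-32293398). Its fold was 9.17, 8.11 and 6.78 in WT and 7.66, 10.3 and 11.7 in CREBBP-KO. The percentile was 76.4 ± 5.66 (SD, n = 3) and 83.4 ± 3.89 (exact permutation test, p = 0.2), and the shift 0.26 ± 0.23 (limma adjusted p = 0.397). Of the 6 intervals around HDAC1, 3 were tested and 0 were called by limma, with 1 at an unadjusted p under 0.05. Its strongest interval away from starts, in intron 2 (chr1:32307271-32308220), reached a fold of at most 4.33 and was not tested. A weak interval downstream (chr1:32348952-32349907) had a peak in all 3 WT libraries, with a fold of 2.48 to 3.32, and in 0 CREBBP-KO libraries. Over all intervals 1.08% were of this kind and 2.66% of the reverse.

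The class IIa regions held 106 intervals, of which 37 were tested, 4 ranked higher and 10 lower (18.6% and 18.7% over all tested intervals). HDAC4 had a strong promoter (chr2:239398756-239402517), with a fold of 18.9, 17.3 and 23.7 in WT and 27.5, 22.5 and 21.2 in CREBBP-KO. The groups overlapped, at a percentile of 97.6 ± 1.29 (SD, n = 3) and 98.1 ± 1.18 (exact permutation test, p = 0.6). The shift was 0.07 ± 0.20 (limma adjusted p = 0.796) and changed sign without WT replicate 1 (−0.01), WT replicate 2 (−0.05) or CREBBP-KO replicate 1 (−0.13).

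Inside HDAC4, 3 intervals of intron 2 were called, in both directions. Of the 11 tested in the HDAC4 region, 1 ranked higher and 2 lower (18.6% and 18.7% over all tested intervals). The strongest interval away from the GENCODE coding starts (chr2:239273541-239277368), which holds 2 alternative starts of RefSeq, had a fold of 20.2, 20.0 and 23.2 in WT and 13.7, 13.6 and 16.6 in CREBBP-KO. It fell without overlap, from a percentile of 98.3 ± 0.57 (SD, n = 3) to 92.2 ± 1.42 (shift −0.998 ± 0.165, limma adjusted p = 0.000118). It stayed lower and called in each alternative in which it was tested. This interval lies 126 kb from the canonical start. An interval at 112 kb (chr2:239287378-239290005) moved the other way, with a fold of 6.91, 5.57 and 6.84 in WT and 11.3, 8.23 and 9.35 in CREBBP-KO.

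That rise in rank had a shift of 0.72 ± 0.25 (limma adjusted p = 0.0299) and no overlap between groups. It was not called without WT replicate 2 (limma adjusted p = 0.119), CREBBP-KO replicate 1 (0.162) or CREBBP-KO replicate 3 (0.0663), or when ranked by −log10 p (0.179). The third interval (chr2:239248408-239250967) had a fold of 10.5, 8.83 and 8.24 in WT and 7.28, 6.97 and 6.44 in CREBBP-KO. Its folds did not overlap but its percentiles did (shift −0.67 ± 0.23, limma adjusted p = 0.0275). The call was lost without WT replicate 1 (limma adjusted p = 0.12), WT replicate 2 (0.0513), CREBBP-KO replicate 2 (0.0573) or CREBBP-KO replicate 3 (0.0924).

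To show the regulatory sequence under these intron 2 changes, the 201 bases around the median summit are given from hg38, plus strand, with matches to the motifs above in capitals.
HDAC4 interval that fell, chr2:239274994-239275194: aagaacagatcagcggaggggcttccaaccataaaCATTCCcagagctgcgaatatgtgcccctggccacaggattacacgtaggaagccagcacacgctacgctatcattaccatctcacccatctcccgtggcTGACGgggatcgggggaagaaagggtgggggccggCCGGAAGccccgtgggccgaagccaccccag
HDAC4 interval that rose, chr2:239289040-239289240: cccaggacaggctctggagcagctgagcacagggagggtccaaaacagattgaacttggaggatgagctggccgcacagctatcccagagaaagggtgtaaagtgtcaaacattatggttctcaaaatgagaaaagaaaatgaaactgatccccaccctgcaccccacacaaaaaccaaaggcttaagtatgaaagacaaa

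The window that fell matched 1 ETS site, 1 TEAD site and 1 TGACG core, and the window that rose matched none of the 7 motifs. Over 34847 summit windows of tested intervals 2.35% held the ETS letters, 10.4% the TEAD letters and 8.88% the TGACG core. The GC content was 60.7% in the window that fell and 47.3% in the window that rose, against a median of 49.8%. Neither window overlapped an annotated exon.

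HDAC5 was the member promoter that ranked lower (chr17:44122647-44124882). Its fold was 15.3, 14.6 and 19.7 in WT and 13.6, 13.1 and 11.4 in CREBBP-KO. Each knockout library stood below each WT library, with a percentile of 95.2 ± 2.14 (SD, n = 3) and 89.3 ± 3.01 (exact permutation test, p = 0.1). The shift was −0.70 ± 0.18 (limma adjusted p = 0.00517) and was called in each of the 15 alternatives, at −1.13 to −0.39. A second group of HDAC5 starts, 14.8 kb into the gene (chr17:44107169-44111819), had a fold of 6.99, 7.80 and 8.29 in WT and 6.74, 5.63 and 5.74 in CREBBP-KO. Its shift was −0.66 ± 0.27 and was not called (limma adjusted p = 0.0533), but was without CREBBP-KO replicate 1 (0.0318), without a trend (0.034) and when ranked by −log10 p (0.00783).

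Of the 9 tested intervals in the HDAC5 region, 2 ranked higher and 2 lower (18.6% and 18.7% over all tested intervals). Both higher intervals were among the 3 at starts of neighbouring genes. At LSM12, which encodes an LSM-domain protein (chr17:44065074-44067617), the fold was 11.4, 10.7 and 10.4 in WT and 21.2, 18.6 and 22.6 in CREBBP-KO. This gap was far wider than the spread within either group (shift 1.02 ± 0.17, limma adjusted p = 9.92e-05), and it was not called when ranked by −log10 p (0.26, limma adjusted p = 0.157). At HROB, a DNA repair gene (chr17:44141240-44145286), the fold was 11.4, 13.2 and 13.3 in WT and 22.0, 16.4 and 20.5 in CREBBP-KO, without overlap (shift 0.61 ± 0.18, limma adjusted p = 0.0107). Its call was lost without WT replicate 1 (limma adjusted p = 0.056), without CREBBP-KO replicate 1 (0.0843) and when ranked by −log10 p (0.22). The third, G6PC3, a glucose phosphatase gene between LSM12 and HDAC5, was not called (chr17:44069539-44075178, shift 0.09 ± 0.19, limma adjusted p = 0.741).

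The strongest interval within HDAC5, in intron 3 (chr17:44095099-44098684), had a fold of 15.9, 18.3 and 15.5 in WT and 15.1, 13.6 and 14.5 in CREBBP-KO. The groups lay close together without overlap (shift −0.49 ± 0.17, limma adjusted p = 0.0247). The call was lost without WT replicate 2 (limma adjusted p = 0.128), CREBBP-KO replicate 2 (0.0917) or CREBBP-KO replicate 3 (0.0739), and without a trend (0.0733). HDAC5 had the most tested intervals per length of the 9 regions, 10.3 per 100 kb, against 1.36 in HDAC9.

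**Figure D2:**
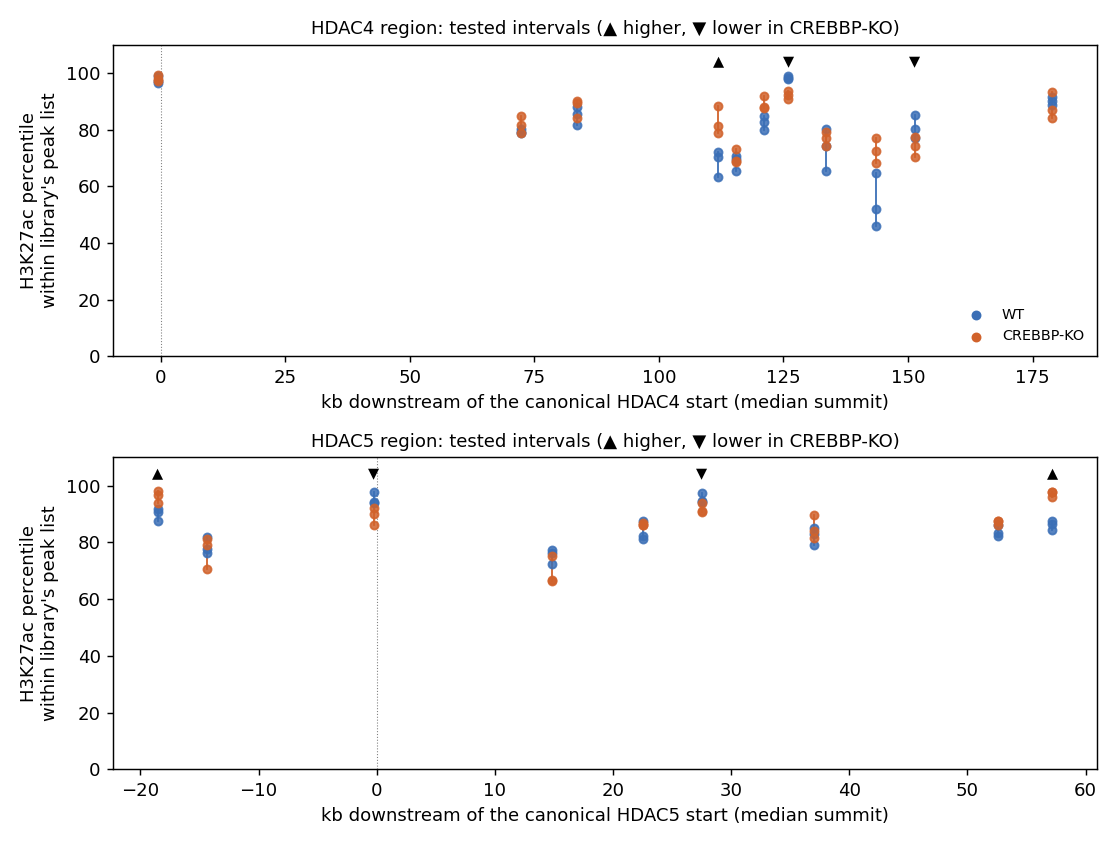
Percentile of each tested interval in the library's own list (y axis) against the distance of its median summit downstream of the canonical start in kb (x axis), for HDAC4 (above) and HDAC5 (below), with 1 point per library and lines joining the 3 libraries of a group. Filled triangles mark calls at an adjusted p of 0.05, pointing up where CREBBP-KO ranked higher; in HDAC5 the start fell and both outermost intervals, at LSM12 and HROB, rose.

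HDAC7, a class IIa member known from endothelial and lymphoid development, lay in the widest merged interval of the 9 regions (chr12:47798286-47826926). Merged over the 6 libraries it spanned 28641 bp, at the 99.7th percentile of width among tested intervals. In single libraries HDAC7 had a promoter peak of 7325 to 19432 bp. Its promoter peak had a fold of 23.8, 22.8 and 21.3 in WT and 20.4, 22.9 and 26.2 in CREBBP-KO. The groups overlapped at a percentile of 98.8 ± 0.365 (SD, n = 3) and 98.2 ± 0.62 (exact permutation test, p = 0.2; shift −0.27 ± 0.17, limma adjusted p = 0.216). Of the 4 tested intervals 0 were called by limma, with 1 at an unadjusted p under 0.05. The highest away from starts (chr12:47774913-47777947) had percentiles of 82.9 ± 0.804 and 85.7 ± 3.25. A weak interval in intron 22 (chr12:47785487-47786578) was listed in each CREBBP-KO library, at a fold of 3.26 to 3.49, and in 0 WT libraries, the 1 such interval of the 149.

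HDAC9, the longest of the genes at 915 kb, had 57 intervals, of which 13 were tested, 6 ranked lower and 1 higher (18.7% and 18.6% over all tested intervals). Its canonical promoter (chr7:18494841-18496653) was modest, with a fold of 4.92, 6.24 and 6.29 in WT and 8.05, 8.40 and 6.21 in CREBBP-KO. The folds overlapped while the percentiles did not, at 64.4 ± 5.75 (SD, n = 3) and 76.4 ± 6.19 (exact permutation test, p = 0.1). With lists of equal length the percentiles overlapped too, and the shift was 0.50 ± 0.29 (limma adjusted p = 0.173).

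The strongest interval of HDAC9 was 13.7 kb downstream, at alternative starts in intron 2 (chr7:18507462-18511957). Its fold was 20.9, 19.7 and 17.7 in WT and 19.1, 17.1 and 16.5 in CREBBP-KO. Although these overlapped, the interval was called lower (shift −0.48 ± 0.17, limma adjusted p = 0.0288). The call was lost without WT replicate 1 (limma adjusted p = 0.0904), WT replicate 2 (0.0836), CREBBP-KO replicate 2 (0.0915) or CREBBP-KO replicate 3 (0.129), without a trend (0.0842) and when ranked by −log10 p (0.318). Taking the highest peak at any HDAC9 coding start in place of the canonical start turned the percentile difference from 12.0 to −2.51.

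The largest negative shift of any member interval lay past the annotated end of HDAC9, 514 kb from its start (chr7:19008350-19011948), toward TWIST1, a mesenchymal transcription factor gene. Its fold was 13.3, 15.6 and 12.6 in WT and 6.65, 7.14 and 8.50 in CREBBP-KO. The percentile fell from 92.0 ± 2.78 (SD, n = 3) to 76.1 ± 2.23, with a wide gap between groups (shift −1.32 ± 0.20, limma adjusted p = 5.84e-05). It was called in each of the 15 alternatives, at −2.20 to −0.58.

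Within intron 2, 45.8 kb from the start (chr7:18540060-18542494), the fold was 9.04, 8.84 and 7.44 in WT and 4.16, 6.94 and 4.74 in CREBBP-KO. The folds did not overlap, but CREBBP-KO replicate 2 reached the percentile of WT replicate 3 (shift −1.28 ± 0.31, limma adjusted p = 0.00284), and its mean percentile fell by 16.7, against 15.8 in the interval past the gene end. The interval in intron 21 (chr7:18866009-18867729) had a fold of 7.21, 6.28 and 5.32 in WT and 4.36, 4.00 and 4.19 in CREBBP-KO, without overlap (shift −1.14 ± 0.30, limma adjusted p = 0.00478). Both reached the fold minimum of 5 in WT alone. With a minimum of 3, which both groups met, the shifts were −0.87 (limma adjusted p = 0.00733) and −0.82 (limma adjusted p = 0.0199). A further 2 intervals fell without overlap and in every alternative, in intron 2 at 25.0 kb (chr7:18520063-18522458, shift −1.03 ± 0.20, limma adjusted p = 0.000529) and in intron 12 (chr7:18665733-18669215, shift −0.91 ± 0.21, limma adjusted p = 0.00215).

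The 1 HDAC9 interval that ranked higher was in intron 16 (chr7:18767918-18772241), with a fold of 6.56, 3.32 and 6.29 in WT and 8.29, 8.62 and 10.5 in CREBBP-KO. WT replicate 2 stood far below the other WT libraries, at percentile 28.6 against 70.0 and 67.2, so the fold minimum of 5 was met in CREBBP-KO alone. The shift was 1.18 ± 0.35 (limma adjusted p = 0.0115) with all libraries, and 0.60 without WT replicate 2, not called (limma adjusted p = 0.0764). It was not called without CREBBP-KO replicate 3 either (1.03, limma adjusted p = 0.0593). The highest interval away from starts by mean percentile over all 6 libraries, though not in WT, in intron 14 (chr7:18752021-18756235), had a fold of 11.9, 11.4 and 11.7 in WT and 14.5, 14.5 and 14.4 in CREBBP-KO. Its shift of 0.21 ± 0.16 was not called (limma adjusted p = 0.334), except when ranked by −log10 p (0.56, limma adjusted p = 0.00513).

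**Figure D3:**
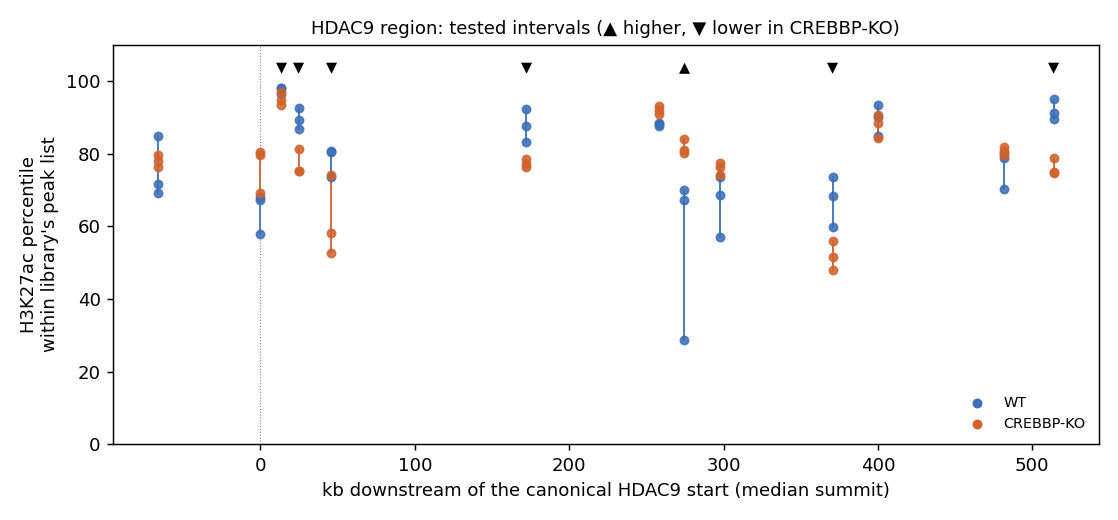
Percentile of each of the 13 tested HDAC9 intervals in the library's own list (y axis) against the distance of its median summit downstream of the canonical start in kb (x axis), with 1 point per library and lines joining the 3 libraries of a group. Triangles mark calls at an adjusted p of 0.05: 6 intervals fell, 1 rose and the rest overlap or lie close.

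Sequence under 3 of these distal HDAC9 intervals is given as above, from hg38, plus strand.
HDAC9 past the end, fell, chr7:19009535-19009735: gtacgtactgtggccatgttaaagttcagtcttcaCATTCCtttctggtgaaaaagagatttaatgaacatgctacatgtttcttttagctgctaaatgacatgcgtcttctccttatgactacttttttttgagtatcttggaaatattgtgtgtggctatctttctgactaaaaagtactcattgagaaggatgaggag
HDAC9 intron 2, fell, chr7:18541472-18541672: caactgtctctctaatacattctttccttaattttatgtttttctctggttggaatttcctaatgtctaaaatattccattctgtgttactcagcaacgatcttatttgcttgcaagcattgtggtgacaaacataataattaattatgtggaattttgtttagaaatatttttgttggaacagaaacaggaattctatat
HDAC9 intron 16, rose, chr7:18770103-18770303: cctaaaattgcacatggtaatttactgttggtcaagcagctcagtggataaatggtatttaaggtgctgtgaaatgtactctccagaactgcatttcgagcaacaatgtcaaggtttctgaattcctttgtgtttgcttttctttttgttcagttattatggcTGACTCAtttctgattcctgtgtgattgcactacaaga

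The first window matched 1 TEAD site, the second none of the motifs and the third 1 AP-1 site, which 6.61% of the 34847 summit windows held. Their GC content was 36.3%, 29.4% and 37.8%, all below the median of 49.8%. They held 2, 1 and 1 CpG.

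HDAC9 also held 2 weak intervals with a peak in all 3 WT and 0 CREBBP-KO libraries, 1 upstream of the canonical start within the gene (chr7:18368099-18368991, fold 3.17 to 3.34) and 1 in exon 26 (chr7:18995490-18996472, fold 2.44 to 3.61). Together with the interval near HDAC1 these were 3 of 149 intervals.

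Among the BET genes, BRD2 had the highest mean promoter percentile in WT of the 9 members. Its interval (chr6:32966122-32978272), 12151 bp wide, also covered a start of HLA-DMA, an antigen presentation gene 500 bp away on the opposite strand. The fold was 27.3, 21.7 and 29.0 in WT and 29.7, 22.4 and 29.7 in CREBBP-KO. The groups overlapped at a percentile of 99.4 ± 0.497 (SD, n = 3) and 99.0 ± 0.938 (exact permutation test, p = 0.6; shift −0.25 ± 0.21, limma adjusted p = 0.362). The summits of the BRD2 promoter peaks lay at 1035, 98 and 143 bp from the start in WT and at 1786, 1946 and 1771 bp in CREBBP-KO. The folds of BRD2 were thus not all read at the same site, and in CREBBP-KO not within 1 kb of the start. The promoter interval was the 1 tested interval of 5 in the region. The strongest away from starts (chr6:32980501-32984866) reached a fold of 2.95 to 4.32.

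BRD3 had a promoter interval (chr9:134064825-134068947) with a fold of 16.0, 12.7 and 12.5 in WT and 16.0, 20.9 and 20.1 in CREBBP-KO. WT replicate 1 and CREBBP-KO replicate 1 stood at nearly the same level and the groups overlapped in percentile, at 91.6 ± 2.85 (SD, n = 3) and 96.1 ± 1.31 (exact permutation test, p = 0.2). The shift of 0.40 ± 0.17 was not called (limma adjusted p = 0.0751), but was without WT replicate 1 (0.53, limma adjusted p = 0.0327) or without CREBBP-KO replicate 1 (0.51, limma adjusted p = 0.0469).

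The alternative starts of BRD3 in intron 1 (chr9:134054716-134062814) did rank higher. Their fold was 5.02, 4.99 and 5.66 in WT and 7.35, 8.36 and 7.53 in CREBBP-KO, without overlap (shift 0.87 ± 0.27, limma adjusted p = 0.0147). The call was lost without CREBBP-KO replicate 2 (limma adjusted p = 0.0639) and when ranked by −log10 p (0.156). The interval met the fold minimum of 5 in CREBBP-KO alone, and with a minimum of 3 its shift was 0.57 (limma adjusted p = 0.0384). The start of the neighbouring BRD3OS (chr9:134025319-134026489) had a fold of 5.80, 5.29 and 4.64 in WT and 8.62, 7.66 and 6.60 in CREBBP-KO, also without overlap and past the minimum in CREBBP-KO alone (shift 0.80 ± 0.28, limma adjusted p = 0.0284). This call was lost without WT replicate 3 (limma adjusted p = 0.0624), CREBBP-KO replicate 1 (0.144) or CREBBP-KO replicate 2 (0.076), and with a fold of at least 3 (0.0576).

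The promoters of 57 genes that work with these proteins were examined as a list: subunits of the co-repressor complexes, the MEF2 factors and the remaining deacetylase, sirtuin and BET genes. Of 54 tested, 17 ranked higher in CREBBP-KO, 3 lower and 34 were not called, and the median shift was 0.31. These counts stand beside the 27.2% and 7.5% of all tested canonical-start intervals. HDAC11 and BRDT had no promoter peak in any library.

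Over all tested intervals at canonical starts 27.2% were called higher and 7.5% lower, and differences between complexes were not tested. By complex, 3 of 5 NCoR promoters examined ranked higher and 0 lower, with a median shift of 0.43. SIN3 had 3 higher of 13, NuRD 3 higher and 1 lower of 11, CoREST 2 higher of 5 tested and the MiDAC and MIER genes 2 higher of 5. Of the latter 2, MIER1 was called through a wide merged interval (chr1:66923770-66948266, shift 0.75 ± 0.20, limma adjusted p = 0.00601). Its peaks overlapping the window at the start had a fold of 11.3, 11.7 and 10.3 in WT and 10.6, 9.90 and 17.4 in CREBBP-KO. Their percentiles overlapped between groups (exact permutation test, p = 0.9). Of the MEF2 genes 0 were higher and 1 lower of 4, and of the remaining deacetylase and BET genes 4 were higher and 1 lower of 11.

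The partner promoter with the largest shift was that of CORO2A, a WD-repeat subunit of the NCoR complex, with a fold of 3.25, 2.88 and 3.72 in WT and 5.23, 6.64 and 6.51 in CREBBP-KO (shift 1.44 ± 0.31, limma adjusted p = 0.00124). It was the 1 partner promoter that met the fold minimum of 5 in CREBBP-KO alone, so its shift had to lean upward. A minimum of 3 was missed by WT replicate 2 as well, at 2.88. TBL1XR1, an exchange factor of the same complex, had a fold of 15.9, 17.1 and 13.2 in WT and 29.2, 29.4 and 28.7 in CREBBP-KO (shift 1.06 ± 0.17, limma adjusted p = 9.91e-05). In both the groups did not overlap.

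ARID4B, a DNA-binding subunit of SIN3, had a fold of 10.0, 9.83 and 11.3 in WT and 22.9, 19.1 and 21.5 in CREBBP-KO (shift 1.14 ± 0.17, limma adjusted p = 4.76e-05). SIRT6, a nuclear sirtuin, had a fold of 7.10, 7.0 and 5.73 in WT and 9.94, 11.4 and 12.3 in CREBBP-KO (shift 0.91 ± 0.23, limma adjusted p = 0.00331), a call that was lost when ranked by −log10 p (0.30, limma adjusted p = 0.17). RBBP7, a histone-binding subunit of NuRD and SIN3, had a fold of 5.96, 6.54 and 9.55 in WT and 10.6, 13.0 and 12.4 in CREBBP-KO (shift 0.86 ± 0.25, limma adjusted p = 0.00901), a call that was lost without WT replicate 1 (0.64, limma adjusted p = 0.0507) and when ranked by −log10 p (0.44, limma adjusted p = 0.0908). MEF2D, a class IIa binding factor, was the 1 of these 6 whose interval fell. Its fold was 24.0, 23.6 and 24.2 in WT and 17.3, 14.4 and 20.0 in CREBBP-KO, without overlap (shift −0.99 ± 0.17, limma adjusted p = 0.000182). The summits of these peaks lay at −2486, −2509 and −2484 bp from the start in WT and at 189, 276 and −2490 bp in CREBBP-KO. The folds of MEF2D were thus not all read at the same site, and in WT not within 1 kb of the start. The starts of ARID4B and SIRT6 lie 220 and 126 bp from the starts of GGPS1 and ANKRD24, which share their intervals.

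**Figure D4:**
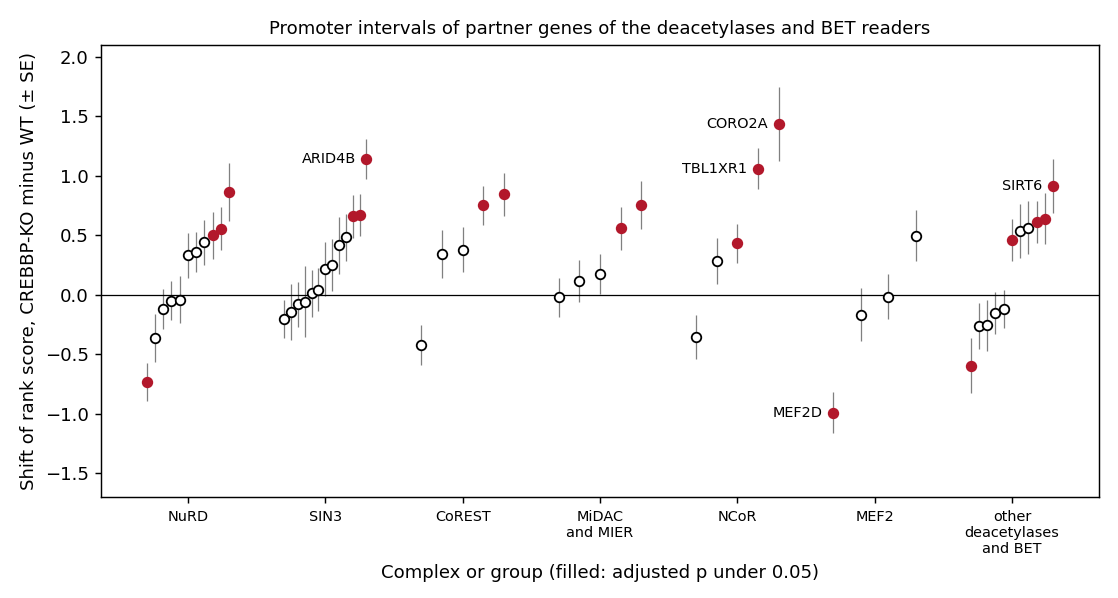
Shift of the rank score (CREBBP-KO minus WT, y axis, with its SE) of the promoter intervals of 54 partner genes, sorted within each complex or group (x axis). Filled points passed an adjusted p of 0.05, of which 17 were higher and 3 lower, and the 5 with the largest absolute shift are named.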

How the data were processed

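H3K27ac ChIP-seq peak lists of 3 WT and 3 CREBBP-KO libraries were analysed; the inputs, which have no peak list, were not used here. The authors ran the ChIP-seq pipeline of nf-core on hg38, with narrow peak calling by MACS2, and deposited a list for each library (the submitters' processing notes name BWA). The deposited lists give for each peak its fold, a linear ratio to background around it, and its −log10 p and −log10 q, of which the smallest −log10 q was 1.3. A deposited score was left unused. The study describes downsampling of reads; whether the lists precede it and what control each had are not given in the sources used here. The lists hold no read counts, so depth is unknown and no counting intervals were computed.

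Overlapping or touching peaks were merged across lists. Each interval's highest fold was ranked within its library, turned into normal scores and fitted with limma 3.58.1 (lmFit, eBayes with a trend, genotype only; R 4.3.3), with Benjamini-Hochberg adjustment. Intervals had to reach a fold of 5 in each of the 3 libraries of a genotype and to hold a peak in all 6. Merging and ranking used Python 3.11.15, numpy 2.4.6, pandas 2.3.3 and scipy 1.17.1, and were tested on simulated data and against bedtools 2.31.1. Promoters were windows within 1 kb of the canonical GENCODE start. The highest peak overlapping the window was taken, and its summit could lie outside. Promoter sequence came from RefSeq and summit windows from hg38.

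The 9 genes, the partner and marker lists, tests and alternatives were chosen with earlier results of these data known. Named intervals were each gene's promoters, its highest interval away from starts and every interval past adjusted p 0.05, with at most 4 per gene in full, and the 6 partner promoters with the largest shift. One partner gene is not reported here and was left out of the partner list and its counts. The study's test on reads was not repeated. Alternatives were other fold filters and replicate rules, a stricter q, summit windows, lists of equal length, ranking by −log10 p, limma without a trend, a replicate block, other flanks and promoter distances, and leaving out each library.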

Additional observations from a re-analysis of the deposited data

How the results depend on the processing

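Of 8 member intervals called higher, 3 were called with a fold of at least 10 (beside 9 lower, of 24 tested), 5 with no flank and 1 at an adjusted p of 0.0001. Ranked by −log10 p 5 were called higher, of which 3 were among the 8. Of 12 called lower, 1 remained at that threshold. Of 17 partner promoters called higher, 8 were called when ranked by −log10 p and 11 by limma without a trend. The cause of these differences was not tested, apart from the fewer intervals left by the fold, the flank and the threshold. Leaving out each library gave 6 to 8 higher and 8 to 13 lower member intervals, and 11 (without CREBBP-KO replicate 1) to 17 higher and 2 to 4 lower partner promoters. Small promoter differences changed sign, and so did the larger one of HDAC9. In percentile, HDAC9 gave −2.51 at any coding start, against 12.0 at the canonical start. HDAC4 gave −0.000896 and HDAC7 0.0446 when ranked by −log10 p, and leaving out a library gave −0.124 to 1.24 for HDAC4 and −0.724 to 0.133 for BRD2. In shift, the HDAC4 promoter gave −0.0451 when ranked by −log10 p and −0.13 to 0.27 when a library was left out, and the HDAC7 interval away from starts −0.0773 to 0.164. The other alternatives kept both directions within 1.5 times. With the replicate block 8 member intervals were higher and 12 lower, as without it, and 18 partner promoters were higher and 3 lower. Same-numbered libraries had correlations of 0.0108, 0.0144 and 0.0284 in their deviations, and differently numbered ones −0.0248 to 0.0118. Values this small cannot decide whether the numbers pair the samples. With lists of equal length 16 partner promoters were higher. Weak peaks near the threshold limit what can be said of intervals present in 1 group.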
